A study of Mus musculus with 6 samples.

Results

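The JAK, STAT and SOCS genes carry signals from cytokine receptors to the nucleus, and 10 of them were followed here in haematopoietic stem cells (HSC) of wildtype and PU.1 knockdown mice: Jak1, Jak2, Stat3, Stat5a, Stat5b, Stat6, Socs1, Socs2, Socs3 and Cish. They were taken by name, through every probe set that the platform annotation ties to that single symbol. This gave 26 of the 44991 probe sets of the array and 10 of the 18186 genes it names. The HSC were sorted by flow cytometry from bone marrow, and RNA of 3 animals was pooled for each array, with 3 wildtype and 3 knockdown arrays. Spi1 is the gene of PU.1, a transcription factor with an ETS domain that drives the formation of myeloid and B lymphoid cells. Not given in the sources used here are the means of reducing PU.1, the strain and age of the animals and the surface markers of the sort.

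Cytokines such as interleukin-3 and interleukin-6 bind receptors that have no kinase of their own and rely on bound Janus kinases (JAK). These phosphorylate the receptor and then STAT proteins, which pair, enter the nucleus and switch on target genes. Among those targets are Cish and the Socs genes, whose proteins bind receptors or JAKs through an SH2 domain and damp the signal, so that their transcripts are often read as a trace of recent cytokine signalling. STAT5 is known for its part in HSC maintenance, STAT3 for signals of the interleukin-6 and G-CSF receptors.

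Values are given as deposited intensities, on a linear scale with unknown scaling, and as log2(intensity + 16) after quantile normalisation. Differences are knockdown minus wildtype on that log2 scale, with the standard error (SE) or the 95% interval of the limma fit, and folds on this scale are understated for dim probe sets. Intensities of different probe sets are not comparable, because each has its own probes. Readings below are always in the order of pools 1, 2 and 3. Spi1 itself, the check of the labels, read 1120, 718 and 1053 in the wildtype pools, and 362, 360.4 and 119 in the knockdown pools. It was thus lower in each knockdown pool, and lowest in knockdown pool 3. Array medians lay between 81.4 and 91.5, and correlations between arrays across probe sets between 0.955 and 0.979. Wildtype pool 2 stood apart in cell type markers, with the highest summed intensity of 7 stem cell markers (11051, against 5465 to 6828 in the other 5 pools) and the lowest of 7 neutrophil markers (16562, against 32790 to 43507).

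Among these genes, Socs3 read higher in every knockdown pool than in any wildtype pool on all of its 3 probe sets, and Socs2 read lower in every knockdown pool on 2 of its 6. The probe sets of the kinases, the STAT genes, Cish and Socs1 had differences between -0.68 and 0.37 on the log2 scale. Of the 26 member probe sets, 0 passed limma with Benjamini-Hochberg adjustment at the 0.05 threshold, and the share called over the array was also 0%. At an unadjusted p under 0.05 there were 5 member probe sets, the 3 of Socs3 and 2 of Socs2, beside 7.11% of all probe sets, and 5 or 6 with any 1 array left out. The 2 groups of arrays did not overlap for 7 member probe sets, against a background of 12.9%. Of these 7, 5 were higher in the knockdown (background 7.59%) and 2 lower (background 5.26%). They were 3 of Socs3, 2 of Socs2 and 1 each of Socs1 and Stat5a, so probe sets of the same gene were counted repeatedly. By gene, represented by its brightest probe set, 5 members had a higher and 5 a lower knockdown mean, where 53.4% of all genes were higher. Groups were apart for 3 of the 10 genes (background 13.8%), Socs3 and Socs1 higher and Socs2 lower. The median difference was -0.04 over the 10 genes and 0.02 over all genes, while the median size of a difference without its sign was 0.17 and 0.15. With the values as deposited, 3 of the 10 were higher, and the median difference of all probe sets was -0.05 in place of 0.01.

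**Figure D1:**
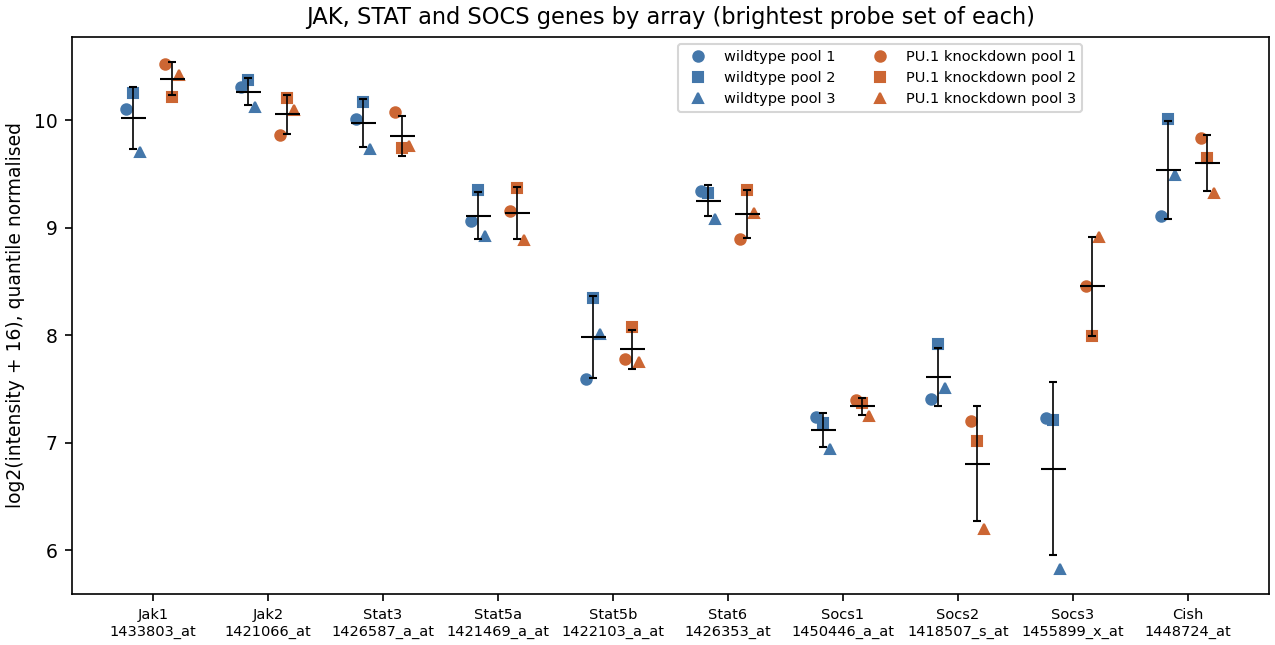
Log2(intensity + 16) after quantile normalisation (y axis) of the brightest probe set of each of the 10 genes (x axis), with 1 point per pool in blue for wildtype and orange for knockdown. Dashes and bars are mean and SD, n = 3 pools per group. Socs3 and Socs2 show the widest gaps, with knockdown pool 3 at the top for Socs3 (8.91) and at the bottom for Socs2 (6.20).

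The SOCS genes are the negative feedback arm of the pathway. Socs3, whose protein binds the gp130 and G-CSF receptors together with their JAK and stops STAT3 signalling, was the member with the smallest p. On its brightest probe set, 1455899_x_at, it read 137, 141 and 42.8 in the wildtype and 299.9, 237 and 479 in the knockdown pools. Every knockdown pool was above every wildtype pool, with knockdown pool 3 the highest and wildtype pool 3 the lowest. The log2 means were 6.76 ± 0.80 and 8.46 ± 0.46 (SD, n = 3 pools each), a difference of 1.70 (95% interval 0.76 to 2.63) or 3.24-fold. The limma p of 0.00311 did not pass adjustment over all probe sets (Benjamini-Hochberg adjusted p = 0.497). The exact two-sided permutation p was 0.1, the smallest that 3 arrays against 3 allow, as it was for Socs2 and Socs1, the other member genes with groups apart.

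The other Socs3 probe sets gave the same order of groups. Probe set 1456212_x_at read 55.3, 56.2 and 29.25 in the wildtype and 75.55, 105 and 198 in the knockdown pools, a log2 difference of 1.18 (SE 0.31; limma adjusted p = 0.538). Probe set 1416576_at read 37.5, 55.7 and 32.6 in the wildtype and 109, 64.1 and 122 in the knockdown pools, a difference of 1.03 (SE 0.25; limma adjusted p = 0.501). Again no knockdown pool reached down into the wildtype range on either, though both were dim, at the 45.7th and 41.6th percentile of mean level over all probe sets. In the naming scheme of the array maker, the ending _x_at marks probes that may also bind other transcripts. The third probe set, 1416576_at, carries no such mark. Leaving out any single array kept the difference of 1455899_x_at between 1.23 (without wildtype pool 3) and 1.93 (without wildtype pool 1), and that of 1416576_at between 0.91 and 1.27.

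The promoter window of Socs3 is shown because a STAT motif lies in it. The motif searched was TTCNNNGAA, which reads the same on both strands, and its letters are in capitals. The stretch is the 250 bases before the annotated start of transcription, 5′ to 3′ on the minus strand (RefSeq, GRCm38.p6), at chr11:117969367-117969616:
Socs3: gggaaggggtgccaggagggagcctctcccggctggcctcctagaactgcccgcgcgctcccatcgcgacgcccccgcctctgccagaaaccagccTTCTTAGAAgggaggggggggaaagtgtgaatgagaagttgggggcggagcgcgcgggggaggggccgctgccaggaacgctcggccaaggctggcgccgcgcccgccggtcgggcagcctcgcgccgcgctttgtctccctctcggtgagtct

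The match TTCTTAGAA begins at base 97 of this stretch. Windows of 300 bases, from 250 before to 50 after a start, were found for 9 of the 10 genes (all but Socs2), as 11 windows. Of these 9, Socs3 and Cish held the STAT motif, which 8.3% of all 32851 windows hold. The PU.1 core motif searched, GAGGAAGT on either strand, was in 0 of the 11 windows and in 3.2% of all windows. A match in letters is a description of the sequence, and the arrays did not measure binding.

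Socs2 encodes the SOCS protein known for limiting growth hormone signalling, and its transcript is also known from the HSC compartment as a STAT5 target. On 1449109_at it read 153, 164 and 159 in the wildtype and 90.0, 85.7 and 34.1 in the knockdown pools. The wildtype pools lay close together and all knockdown pools lay below them, with knockdown pool 3 the lowest. The log2 means were 7.40 ± 0.03 and 6.39 ± 0.65, a difference of -1.01 (95% interval -1.70 to -0.32), so the wildtype level was 2.02-fold the knockdown level (limma adjusted p = 0.565). On 1418507_s_at, the brightest probe set, the readings were 158, 242 and 168 in the wildtype and 120.1, 110.1 and 58.2 in the knockdown pools. The groups were apart here too, with a difference of -0.81 (SE 0.28; limma adjusted p = 0.639). Without knockdown pool 3 the differences shrank to -0.64 on 1449109_at and -0.50 on 1418507_s_at.

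The remaining 4 Socs2 probe sets did not show that gap. All had a mean below the median of all probe sets, and their differences were 0.19 on 1446085_at, 0.23 on 1441476_at, -0.32 on 1438470_at and, on 1442586_at, 0.00 with an interval of -0.33 to 0.33. Their groups overlapped. The platform annotation ties 1449109_at and 1418507_s_at to the RefSeq transcript of Socs2 and each of the other 4 to another sequence record. Averaged over all 6, Socs2 differed by -0.29 and Socs3, averaged over its 3, by 1.30.

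**Figure D2:**
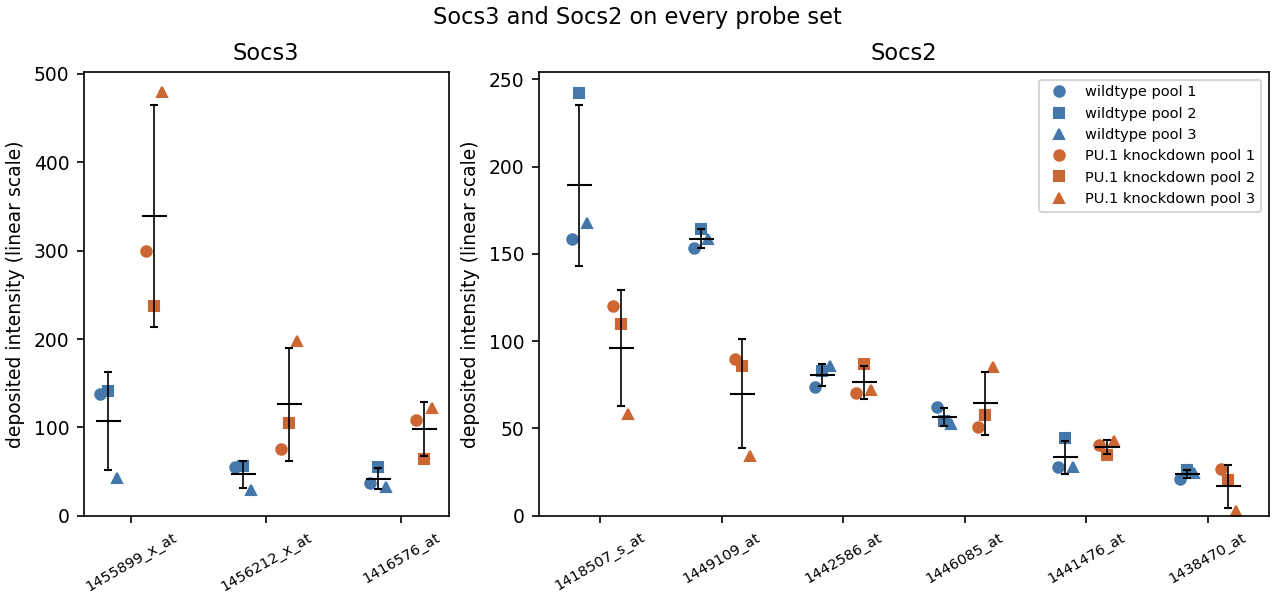
Deposited intensity (y axis, linear, from 0) on each probe set (x axis) of Socs3, left, and Socs2, right, with 1 point per pool and mean ± SD for the 3 pools of a group. All 3 Socs3 probe sets have the knockdown pools above the wildtype pools, and 1418507_s_at and 1449109_at of Socs2 have them below, while on the other 4 Socs2 probe sets the groups overlap.

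Knockdown pool 3 had the highest Socs3 reading on all 3 probe sets and the lowest Socs2 reading on both that separated the groups, and it also had the lowest Spi1 reading. Without it, Socs3 on 1455899_x_at still differed by 1.47 and Spi1 remained lower in both other knockdown pools, at 362 and 360.4.

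Socs1, which acts on interferon and common gamma chain cytokine signals by blocking JAKs, has 1 probe set, 1450446_a_at. It read 138, 137 and 109 in the wildtype and 139, 145 and 139 in the knockdown pools. The groups were apart by less than 1 intensity unit as deposited, and wildtype pool 3 was the one low reading. The log2 difference was 0.22 (95% interval -0.12 to 0.55; limma adjusted p = 0.807).

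Cish, the classical STAT5 target and a brake on STAT5-activating receptors, did not follow Socs2 or Socs3. It read 547, 1076 and 698 in the wildtype and 792, 805 and 641 in the knockdown pools. The knockdown readings lay inside the wildtype range, whose ends were wildtype pools 1 and 2. The difference was 0.07 (95% interval -0.51 to 0.64; limma adjusted p = 0.973), which leaves room for a change of that width in either direction. Its sign turned with the values as deposited and without wildtype pool 1 or knockdown pool 1. The Cish window is shown for its paired STAT motifs, in capitals, which begin at the annotated start of transcription and 11 bases further on. The stretch runs from 150 bases before to 30 after the start on the plus strand, at chr9:107296509-107296688:
Cish: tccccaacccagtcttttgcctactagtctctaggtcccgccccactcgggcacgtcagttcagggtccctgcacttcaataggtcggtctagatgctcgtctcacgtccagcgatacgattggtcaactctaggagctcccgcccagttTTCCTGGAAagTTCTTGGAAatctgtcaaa

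Cish and Socs3 thus both hold the motif, and their differences were 0.07 and 1.70. Any link between the motif and these differences was not tested.

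The Janus kinases are the first step after the receptor. Jak1, used by interferon, gp130 and common gamma chain receptors, read 1106, 1271 and 811 in the wildtype pools and 1328, 1197 and 1401 in the knockdown pools on 1433803_at. The groups overlapped through wildtype pool 2 and knockdown pool 2, and the difference was 0.37 (95% interval -0.06 to 0.79; limma adjusted p = 0.741). Its second bright probe set, 1433805_at, differed by 0.01 (SE 0.17), and the dim 1433804_at by 0.30 (SE 0.19). Jak2 is the kinase of the erythropoietin and interleukin-3 receptors. It read 1268, 1375 and 1087 in the wildtype and 807, 1186 and 1110.5 in the knockdown pools on 1421066_at. Knockdown pool 1 was low and the other knockdown pools lay within the wildtype range as deposited, giving -0.21 (95% interval -0.57 to 0.15; limma adjusted p = 0.822). On 1421065_at Jak2 differed by -0.01 (SE 0.17). For neither kinase was a difference detectable with these arrays.

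Among the STAT genes, Stat3 had a lower knockdown mean on all of its 4 probe sets, none of them with groups apart. The brightest, 1426587_a_at, read 1044, 1203 and 831 in the wildtype and 945, 854 and 874 in the knockdown pools, a difference of -0.12 (95% interval -0.52 to 0.28; limma adjusted p = 0.917). The widest was 1459961_a_at, with 227, 346 and 166 in the wildtype and 79.3, 153 and 190.3 in the knockdown pools. Knockdown pool 1 was lowest there and knockdown pool 3 lay above wildtype pool 3, so the groups overlapped (difference -0.68, 95% interval -1.40 to 0.05; -0.38 without knockdown pool 1). The other Stat3 probe sets, 1460700_at and 1424272_at, differed by -0.20 and -0.12.

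Stat5a and Stat5b encode closely related proteins that act downstream of JAK2. Stat5a on 1421469_a_at read 529, 681 and 464 in the wildtype and 487, 658 and 472 in the knockdown pools, nearly the same spread in both groups (difference 0.03, 95% interval -0.40 to 0.45). On the dim 1450259_a_at its readings were 30.4, 41.4 and 37.8 against 41.15, 51.0 and 42.2, apart after normalisation though not as deposited (difference 0.26, SE 0.15). Stat5b read 180.5, 331 and 242 in the wildtype and 183, 253 and 202 in the knockdown pools on 1422103_a_at, a difference of -0.11 (95% interval -0.61 to 0.38). On 1422102_a_at it differed by 0.21 (SE 0.16), so its 2 probe sets had opposite signs. Stat6, which carries interleukin-4 and interleukin-13 signals, also split by probe set. It read 645, 671 and 520 in the wildtype and 407, 647 and 564 in the knockdown pools on 1426353_at, where knockdown pool 1 was lowest (difference -0.12, SE 0.17). On 1421708_a_at the difference was 0.10 (SE 0.20).

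**Figure D3:**
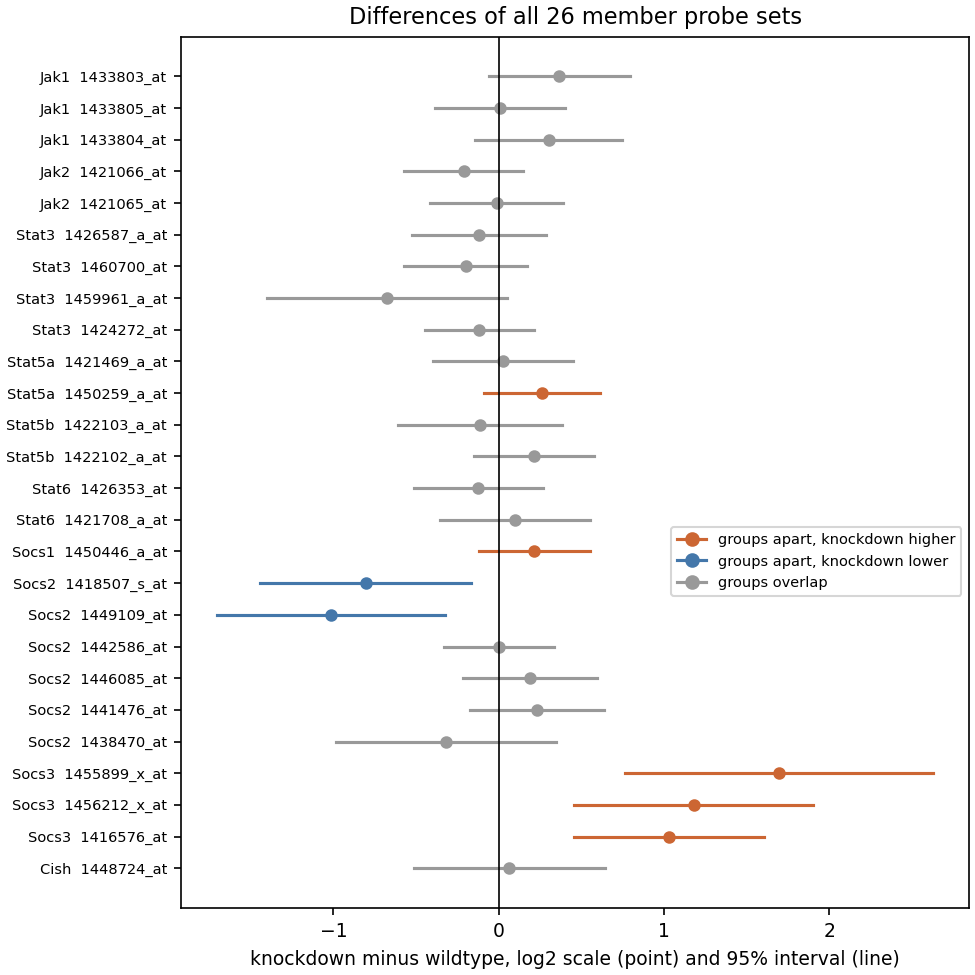
Knockdown minus wildtype on the log2 scale (x axis) for all 26 probe sets of the 10 genes (y axis), as points with the 95% interval of the limma fit. Orange and blue mark groups that did not overlap, with the knockdown higher (5 probe sets) or lower (2). The intervals of the 3 Socs3 probe sets and of 1418507_s_at and 1449109_at of Socs2 leave out 0, and the other 21 cross it.

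The other genes of the pathway were read from lists by role, none of which had a member past the adjusted threshold. Among 8 further family members, 4 had a higher and 4 a lower knockdown mean, and for 0 of the 8 were the groups apart (background 13.8% of genes). Stat4, a carrier of interleukin-12 signals, differed by 0.57 (SE 0.27) and Jak3, the kinase of the common gamma chain, by 0.41 (SE 0.29). Socs4 and Socs7 differed by -0.41 (SE 0.33) and -0.31 (SE 0.18), and their probe sets did not share 1 sign (3 of 4 and 2 of 4 had it). Without knockdown pool 1 they differed by -0.0096 and -0.16, and Jak3 without wildtype pool 3 by 0.22.

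Of the 16 other brakes and adaptors, 4 had groups apart, all lower in the knockdown pools (background 5.39%). The widest was Ptprc, which encodes CD45, a phosphatase of leukocytes that can act on JAKs. It read 2053, 2845 and 2103 in the wildtype and 847, 1535 and 1075 in the knockdown pools. Both of its probe sets had the groups apart, with differences of -1.01 (SE 0.22; limma adjusted p = 0.473) and -0.94. Cbl, a ubiquitin ligase that removes activated receptors, differed by -0.49 (SE 0.15), and on its 3 probe sets by -0.49 to -0.03. Of the 16, 7 had a higher and 9 a lower knockdown mean. The 2 higher ones of smallest p were Usp18, a brake on the interferon receptor, at 0.59 (SE 0.44), and Pias4, an inhibitor of STAT proteins, at 0.24 (SE 0.17), both with overlapping groups. Usp18 differed by 0.12 without knockdown pool 2, and only 1 of the 3 Pias4 probe sets had the higher sign (-0.15 to 0.24).

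Of the 31 measured receptor genes that use JAK kinases, 15 had a higher and 16 a lower knockdown mean, and 2 and 5 of them had groups apart in those directions (background 8.42% and 5.39%). Il12rb1, a subunit of the interleukin-12 and interleukin-23 receptors, read 39.5, 40.8 and 34.9 in the wildtype and 86.95, 91.8 and 93.0 in the knockdown pools. The pools of each group lay close together and the groups were well apart, at a dim level (39.9th percentile). The difference was 1.04 (SE 0.13), with a limma adjusted p of 0.203, the smallest in these lists. Il10ra, the interleukin-10 receptor chain, differed by 0.40 (SE 0.15), and over its 3 probe sets by 0.061 to 0.65. Lower in the knockdown pools were the GM-CSF receptor chain Csf2ra (-1.0, SE 0.22, with -0.13 on its other probe set) and the beta chain Csf2rb, which the GM-CSF and interleukin-3 receptors share (-0.72, SE 0.22, with -0.67 on its other probe set). Csf2rb read 860.5, 613 and 628 in the wildtype and 324, 539.8 and 343 in the knockdown pools, with the groups apart.

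Genes known as STAT targets went both ways. Of 13 STAT5 targets beside the members, 9 had a higher knockdown mean, with a list median of 0.27 against 0.02 over all genes, and 3 higher and 1 lower had groups apart (background 8.42% and 5.39%). Pim2, a survival kinase, read 176, 199.5 and 90.3 in the wildtype and 236, 197.7 and 383 in the knockdown pools. Knockdown pool 3 was highest and knockdown pool 2 lay just below wildtype pool 2 as deposited, so the groups were apart only after normalisation (difference 0.86, SE 0.31; 0.56 without wildtype pool 3). Myc differed by 0.46 (SE 0.14). The anti-apoptotic gene Mcl1 had a lower mean on all of its 6 probe sets (-0.30 on the brightest, SE 0.16), and Gfi1, a repressor of HSC cycling, differed by -0.32 (SE 0.29), but by -0.068 without knockdown pool 2 and -0.58 without wildtype pool 2.

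Of 11 STAT3 targets, 4 had a higher and 7 a lower knockdown mean, and 1 and 2 had groups apart (background 8.42% and 5.39%). Bcl3, an NF-kB cofactor, differed by 0.50 (SE 0.20), or 0.32 without knockdown pool 3. The receptor chain Il4ra differed by 0.36 (SE 0.23), or 0.20 without that pool, and by -0.17 to 0.36 over its 3 probe sets. The AP-1 genes Junb and Fos differed by -0.69 (SE 0.15) and -0.46 (SE 0.14). Of 13 genes known from interferon or STAT6 signalling, 7 were higher and 6 lower. The interferon-induced GTPase gene Gbp2 differed by 0.89 (SE 0.41) with overlapping groups, and by 0.42 without knockdown pool 2. The STAT6-linked genes pointed apart, with Retnla at 0.52 (SE 0.15), Chil3 at -3.41 (SE 1.02, and -2.27 without knockdown pool 3) and Mrc1 at -0.54 (SE 0.25). Chil3 read below 0 in knockdown pool 3 (-18.4) and was set to 1 there. Its difference thus depended on the pseudocount, at -4.50 with 1 and -2.64 with 64 in place of 16.

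**Figure D4:**
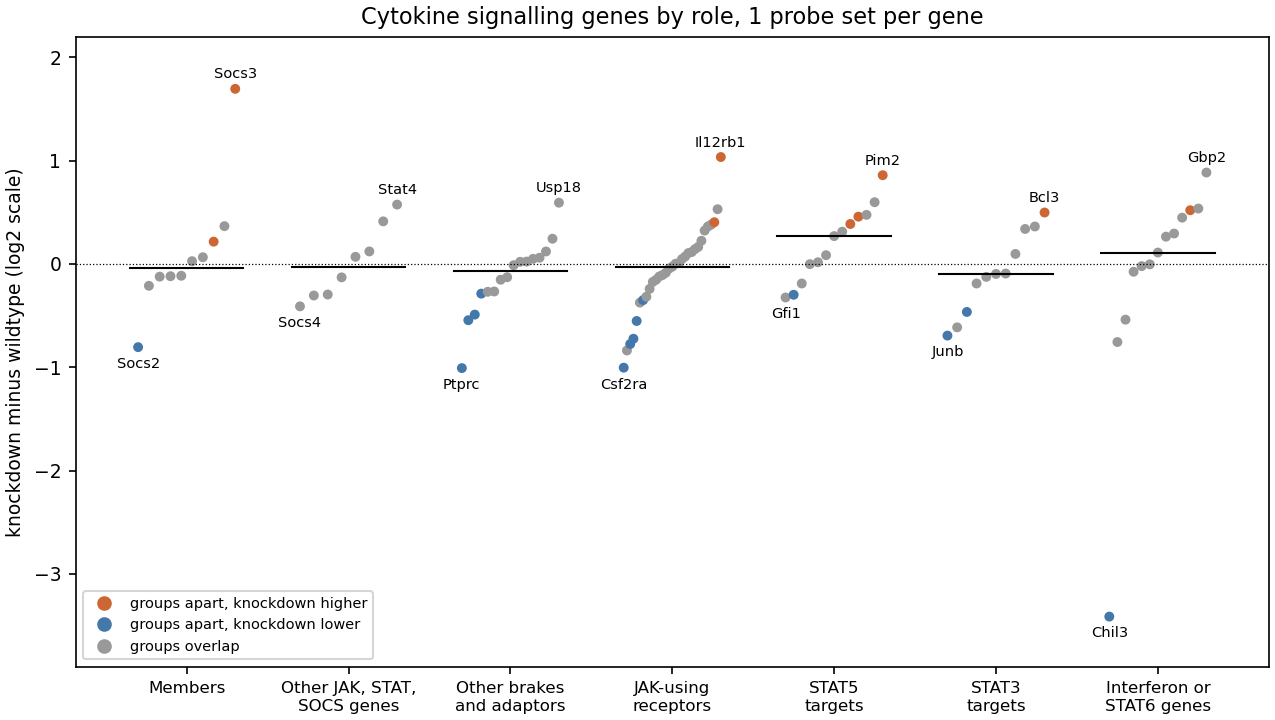
Knockdown minus wildtype on the log2 scale (y axis) for each gene, by list (x axis), with 1 brightest probe set per gene, the list median as a line and the lowest and highest gene named. Orange and blue mark groups that did not overlap, higher or lower in the knockdown. Socs3 (1.70) is the highest and Chil3 (-3.41) the lowest gene drawn, the latter with 1 knockdown reading that was below 0 and set to 1.

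By likeness of pattern to Socs3 on 1455899_x_at, the nearest of 12008 genes above the median level were Puf60 (Pearson r 0.991), Dok2 (0.984) and Ipo9 (0.982), over the 6 arrays. Over these arrays 141 genes exceeded an r of 0.9, and the names describe the ranking alone. Puf60 encodes a splicing factor, Dok2 an adaptor of tyrosine kinase signalling and Ipo9 a nuclear import receptor, and their own differences were 0.13, 0.47 and 0.33.

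Stem cell markers were present on all arrays, with intensities of 1172 to 2326 for Kit and 1017 to 2776 for Cd34. Of the 7 measured, 5 had a lower knockdown mean. Tek, the angiopoietin receptor gene, was the 1 with groups apart (background 13.8% of genes). It read 163 to 226 in wildtype and 59.6 to 98.0 in knockdown pools (difference -0.99, SE 0.21), and Mecom differed by -0.82 (SE 0.34). None of the measured markers of any list was at or below an intensity of 1 on any array. Such a reading alone does not show expression, and Ebf1, Cd3d, Cd3g and Cd2 had a mean below the median of all probe sets. Markers of maturing cells were present too, some of them among the brightest probe sets of the array, and some moved with the groups. Percentiles of mean level ran from 89.1 (Ltf) to 99.9 (Mpo) for the 7 neutrophil markers. For the 7 stem cell markers they ran from 58.8 (Tek) to 96.2 (Hlf). The summed intensity of the 4 mast cell and basophil markers ran from 394.5 to 857 in wildtype and from 1563 to 3327 in knockdown pools, with the highest value in knockdown pool 3, where Socs3 was highest. Cpa3, Mcpt8 and Gzmb were higher with groups apart (background 8.42% of genes), at 2.05, 1.71 and 2.69. Ms4a2 had overlapping groups and differed by 0.10 (SE 0.27), with deposited means of 158 in wildtype and 155 in knockdown pools. The 2 eosinophil markers summed to 1659 to 9595 in wildtype and 158 to 976 in knockdown pools, and the 6 megakaryocyte and platelet markers to 7250 to 14751 and 2372 to 7699. The 5 monocyte and macrophage markers summed to 4551 to 6314 and 2074 to 4966. Ctss and Cd14 were lower with groups apart (background 5.39% of genes), at -1.27 and -0.96, and Csf1r differed by -0.0045. Irf8 and Ly86 read below the wildtype range only in knockdown pool 3, at 140 and 20.1. The sums of the 7 neutrophil markers overlapped, at 16562 to 42980 and 34851 to 43507. Of these, 5 had a higher knockdown mean. Ngp and Camp had every knockdown pool above every wildtype pool (background 8.42% of genes), with differences of 1.08 (SE 0.37) and 1.08 (SE 0.41). As deposited the gaps were narrow, with 7066 above 7051 for Ngp and 5463 above 5333 for Camp. S100a9 and Ltf had a lower knockdown mean (-0.18 and -0.07) with overlapping groups. Wildtype pool 2 was the pool with the high stem cell sum. As deposited, it also had the highest reading on the brightest probe sets of Jak2, Stat3, Stat5a, Stat5b, Stat6, Socs2 and Cish. For Jak1, Socs1 and Socs3 the highest reading was in a knockdown pool. Without wildtype pool 2 the differences were 1.92 for Socs3 on 1455899_x_at and -0.65 for Socs2 on 1418507_s_at. The 5 B lymphoid markers summed to 1227 to 1628 in wildtype and 420 to 1416 in knockdown pools. Cd79b was the 1 of them lower with groups apart (background 5.39% of genes), at -1.06. The 5 T and NK markers summed to 1189 to 3992 and 2374 to 3944. Nkg7 alone read 982 to 3785 and 2193 to 3718, so that sum mostly followed 1 gene. The 4 erythroid markers summed to 1380 to 3865 and 2098 to 7111. The part of these cell types in the differences of Socs2, Socs3 and the other genes was not tested. In such bulk samples, fewer cells of a type and less RNA per cell cannot be told apart.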

How the data were processed

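Each of the 6 arrays (Affymetrix Mouse Genome 430 2.0) held cRNA amplified in 2 rounds from a pool of 3 animals, per the labels. The deposited values are the authors' processed intensity per probe set in linear units. Not given in the sources used here are the software, the background correction and the scaling. Amplification in rounds favours 3′ ends and adds noise to weak transcripts.

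Values under 1 were set to 1, log2(value + 16) was taken, and arrays were quantile normalised because their log2 medians (6.61 to 6.75) spread by more than 0.1. All 44991 probe sets, 34921 of them with 1 gene symbol, entered 1 linear model per probe set (limma 3.58.1, functions lmFit and eBayes; R 4.3.3). Its two-sided p-values were adjusted by Benjamini-Hochberg over the whole array, with a threshold of 0.05. The script was tested on simulated data. Exact permutation tests cannot go below 0.1 here. Pools were the replicates and their number, 3 per group, limits the precision. The brightest probe set by mean stood for a gene.

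The members and lists were chosen with earlier results of these data known. Named genes were the members, Spi1, up to 2 genes of smallest p per list and direction, and the 3 genes most like the member of smallest p. The alternatives were other normalisations, pseudocounts, filters, variance models, array weights, a replicate block, averaging probe sets and leaving out each array. Replicate numbers shared by the groups were not taken as pairs. Promoter windows came from RefSeq (GRCm38.p6). Figures used Python 3.11.15 and matplotlib 3.10.9.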

Additional observations from a re-analysis of the deposited data

How the results depend on the processing

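There were 17 alternatives, of which each member probe set had a value in 14 to 17, since filters removed dim ones and averaging applied to genes. Among those values none passed the adjusted threshold, and 18 of the 26 probe sets kept their sign throughout, all 3 of Socs3 and 1418507_s_at and 1449109_at of Socs2 among them. The smallest adjusted p of a Socs3 probe set under any of them was 0.294 (1416576_at, without wildtype pool 2). With 1 array left out, limma called 0 to 2 probe sets over the array, 0 of them members; 4 to 6 member genes were higher; and their median difference ran from -0.09 to 0.11. As deposited, 3 member genes were higher. The cause of these changes was not tested.

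The replicate block changed no call among the members (0 called; median difference -0.04). Deviations of same-numbered arrays correlated at 0.18, 0.06 and -0.04, and those of differently numbered arrays at -0.20 to 0.15. The numbers were not taken as pairs, though with 3 arrays per group these values cannot exclude pairing.

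The sign turned for the remaining 8 probe sets, each under at least 1 alternative. As deposited these were 1433805_at of Jak1 (-0.049), 1421469_a_at of Stat5a (-0.046), 1442586_at of Socs2 (-0.067) and Cish (-0.0035). With array weights 1421708_a_at of Stat6 gave -0.0037, and averaged over both probe sets Stat5b gave 0.050. With 1 array left out, the ranges were -0.12 to 0.15 for 1433805_at of Jak1, -0.15 to 0.081 for 1421065_at of Jak2, -0.090 to 0.15 for 1421469_a_at of Stat5a and -0.31 to 0.068 for 1422103_a_at of Stat5b. They were -0.066 to 0.23 for 1421708_a_at of Stat6, -0.079 to 0.058 for 1442586_at and -0.56 to 0.031 for 1438470_at of Socs2, and -0.15 to 0.30 for Cish.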
